A study of Mus musculus with 4 samples.

Results

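The major urinary proteins are small secreted carrier proteins of the lipocalin family, encoded in the mouse by a cluster of near-identical genes on chromosome 4. The 9 members described here, Mup1, Mup2, Mup3, Mup4, Mup5, Mup17, Mup18, Mup19 and Mup20, were taken by gene name and read by 11 probes, among 34599 genes on the array; 4 further probes read Mup6, Mup21 and the pseudogene Mup-ps12. The 9 members were selected on their signal in the MN against control contrast, so their differences are given as a description and support no claim about the family.

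Whole-kidney RNA was profiled on 1-colour Agilent arrays in an experimental model of membranous nephropathy (MN), a disease in which immune complexes form beneath the podocytes of the glomerulus. All animals were female BALB/C mice, aged 6 weeks at the start, and all were first immunized with 0.2 mg of cationic bovine serum albumin (cBSA) in complete Freund's adjuvant. The MN group (2 arrays) then received cBSA into the vein, 13 mg/kg, 3 times per week for 6 weeks, beginning 2 weeks after immunization. The control group (2 arrays) received vehicle on that schedule, named saline in one field of the labels and PBS in another, so both groups carry the immunization and the adjuvant. Replicate 1 of both groups lay on slide 1 and replicate 2 of both on slide 2. Nothing in the labels says that the arrays came from separate animals, and every p-value here measures only the spread between these samples, which may be technical.

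In male mice and, at lower levels, in females, the liver makes most of the major urinary proteins and secretes them into the blood. They pass the glomerular filter into the urine, where they bind volatile pheromones and release them slowly. Transcription in liver is driven by growth hormone acting through STAT5B, and also by androgens, thyroid hormone and glucocorticoids. Some members are known from glands instead, such as Mup4 in lacrimal and nasal tissue and Mup5 in salivary glands. Mup20 encodes darcin, a male pheromone protein, and Mup1 has been studied as a circulating regulator of glucose metabolism.

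The probes were 60 bases long, and because the genes are so alike, what each probe can bind matters for every value. Of the 11 member probes, 6 were listed in the files with transcripts of 1 named gene and 5 with transcripts of more than 1. The files list at most 4 transcripts per probe, so further matches are possible. All positions are on mouse build mm9, as in the files, and all member probes match the minus strand of chromosome 4. The next sequences are the coding probes for Mup1 (chr4:60512590-60512649, transcript bases 459 to 518, also listed for Mup2 and Mup19) and Mup20 (chr4:61713671-61713730, starting at transcript base 314), shown because both were near background in control kidneys and above it in MN kidneys:
Mup1: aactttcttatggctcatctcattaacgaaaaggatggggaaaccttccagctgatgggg
Mup20: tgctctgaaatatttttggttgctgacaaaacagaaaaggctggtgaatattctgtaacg

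The Mup17 probe (chr4:61253019-61253078, starting at transcript base 770, also listed for Mup11 and Mup16) and the Mup18 probe (chr4:61331294-61331353, starting at transcript base 745, also listed for Mup16 and Mup19) overlap by 35 bases with 0 mismatches, so their values are not independent. The first 30 bases of that overlap are:
Mup18: ctaggatacctcatcaagaatcaaagactt

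The Mup19 probe (chr4:61439496-61439555, starting at transcript base 684, also listed for Mup1 and Mup17), the second Mup20 probe (chr4:61711407-61711466, starting at base 688) and the second Mup4 probe (chr4:59969824-59969883, starting at base 669) lie over the same window late in the transcript. They are shown together, with capitals for bases that differ from the Mup19 probe, because they read 1 window in 3 genes. The 30 bases printed begin at a stretch that all 3 probes hold, so their likeness does not speak for the whole probes. Over their full overlap of 52 bases, these Mup20 and Mup4 probes differ at 7. No close match of the Mup19 probe to either was found over a full ungapped overlap. Likeness to the Mup19 probe is therefore given for the 30 bases only. Over the 30 bases the Mup20 probe differs from the Mup19 probe at 3 positions and the Mup4 probe at 1:
Mup19: ttctgtgatctgcattccatcctgtctcac
Mup20: ttctgtgatctgcTttccatcGtgtctTac
Mup4: ttctgtgatctgcTttccatcctgtctcac

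The Mup3 probe (chr4:61745794-61745853, starting at transcript base 549) can be set against probes of the same coding window in Mup6 and in the pseudogene Mup-ps12, neither of them a member. Capitals mark the 9 bases by which the Mup6 probe, and the 8 by which the Mup-ps12 probe, differ from it:
Mup3: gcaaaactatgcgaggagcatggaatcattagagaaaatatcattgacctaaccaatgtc
Mup6: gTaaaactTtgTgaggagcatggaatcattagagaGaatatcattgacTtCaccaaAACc
Mup-ps12: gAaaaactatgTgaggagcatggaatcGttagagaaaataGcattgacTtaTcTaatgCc

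The Mup5 probe (chr4:61496097-61496156) opens at the start codon, and the first Mup4 probe (chr4:59973383-59973442, starting at transcript base 95) overlaps it by 25 bases, in capitals here, with 3 mismatches. They are printed because they read the start of the coding sequence, where both genes gave little signal:
Mup5: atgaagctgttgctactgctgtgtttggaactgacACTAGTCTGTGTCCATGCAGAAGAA
Mup4: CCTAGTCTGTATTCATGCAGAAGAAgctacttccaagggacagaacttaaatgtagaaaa

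Signals are given as a percentage of the 75th percentile of non-control spots on the same array. A probe is called well above background where the scanner software marked it so. Levels of different probes are not compared, since probes bind with different strength. By this mark 7 of the 11 member probes were above background on both MN arrays and 4 on both control arrays. In bulk tissue, a change in the number of cells that carry a transcript and a change in the transcript per cell cannot be told apart.

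Mup18, listed in the files under a provisional locus name and matched to its symbol by accession, had 54.7% and 51.3% of the 75th percentile in MN kidneys, against 1.91% and 1.55% in control kidneys. Both MN arrays were well above background and neither control array was. Against a floor for each control array, the probe was at least 24.6-fold higher in MN. The floor was the dimmest signal marked above background on control replicate 1. On control replicate 2 it was the probe's own signal (12.7), which lay above the dimmest signal so marked (12.4). That signal was itself not marked above background, so the bound is approximate. Mup18 was the one of 7 tested members past the threshold in limma's moderated test over 25296 genes (adjusted p = 0.046, two-sided). Of all genes, 0.0198% were called higher and 0% lower. This contrast chose the family, so nothing is read from that count. Mup18, like Mup1 and Mup17, passed the filter through the MN arrays alone, and its p-value rests on control signals that were not told from background. With the slide as a replicate block the adjusted p of Mup18 was 0.0568, short of the threshold, and over all alternatives it ran from 0.0303 to 0.390.

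For Mup17, whose probe overlaps that of Mup18, the values were 26.4% and 30.6% in MN kidneys, against 0.782% and 0.494% in control kidneys. Mup17 was at least 13.4-fold higher in MN (adjusted p = 0.0665 with limma, 0.121 with the block). Mup1 gave 30.6% and 30.8% in MN kidneys, against 0.667% and 1.17% in control kidneys, and was at least 14.4-fold higher in MN (adjusted p = 0.0965 with limma, 0.121 with the block). As for Mup18, both genes were well above background on both MN arrays and on neither control array, so the spread of their control values was not measured.

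The coding probe of Mup20, the darcin gene, had 9.38% and 9.34% in MN kidneys, against 0.658% and 0.638% in control kidneys. Both MN arrays and neither control array were well above background, and the probe was at least 4.40-fold higher in MN. The brighter probe on average, which stood for the gene in the test, had 4.82% and 2.25% in MN kidneys, against 3.64% and 3.29% in control kidneys. Here the MN arrays lay on either side of the control arrays, and the log2 difference was -0.07 ± 0.41 (SE, n = 2 each), with 0.41 within slide 1 and -0.55 within slide 2. Every SE given here is limma's moderated one, which draws on the variance of all genes tested and not on these arrays' values of the gene alone. The 2 probes of Mup20 therefore disagree, and the gene-level value of Mup20 is that of the probe with overlapping groups. In a limma fit with every probe as its own row, the adjusted p was 0.0474 for the coding probe and 0.9999 for the other. The coding probe passed the filter through the MN arrays alone, and its control signals were not told from background.

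Mup19 was measurable in both groups, with 91.1% and 89.3% in MN kidneys, against 12.6% and 10.8% in control kidneys. Its log2 difference was 2.95 ± 0.15 (SE, n = 2 each), 7.75-fold, with 2.86 within slide 1 and 3.05 within slide 2. It missed the threshold (adjusted p = 0.0665 with limma, 0.104 with the block). The gap between the groups was many times the gap between replicates. The Mup1 and Mup18 probes, also listed for Mup19, were not above background on either control array. They therefore do not bear out the control signal of the Mup19 probe.

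Mup4 split by probe. The late probe had 46.1% and 37.8% in MN kidneys, against 9.61% and 14.2% in control kidneys, a log2 difference of 1.83 ± 0.26 (SE, n = 2 each), or 3.57-fold, with 2.26 within slide 1 and 1.41 within slide 2 (adjusted p = 0.344 with limma, 0.177 with the block). The early probe had 0.796% and 0.848% in MN kidneys, against 0.677% and 0.342% in control kidneys, and was not well above background on any array. Its groups did not overlap, but both lay below the level at which a fold has meaning. Another probe, listed for both Mup6 and Mup4, was also not well above background on any array, at 0.802% and 0.869% in MN kidneys, against 0.867% and 0.350% in control kidneys. Mup4 signal thus rests on the late probe alone, which overlaps the second Mup20 probe and is like the Mup19 probe over the bases printed above.

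Mup2 had 18.5% and 23.7% in MN kidneys, against 10.4% and 19.1% in control kidneys, measured by a probe at chr4:60149741-60149800 (starting at transcript base 679) also listed for Mup1. The groups overlapped: MN replicate 1 lay below control replicate 2. Its log2 difference was 0.57 ± 0.36 (SE, n = 2 each), with 0.83 within slide 1 and 0.31 within slide 2 (adjusted p = 0.956 with limma, 0.307 with the block). It was 0.13 without control replicate 1 and 1.01 without control replicate 2. All 4 arrays were well above background for the Mup2 probe, so Mup2 transcripts, or those of a relative it also binds, gave signal in control kidneys. The Mup1 probe, also listed for Mup2, was not above background on either control array (0.667% and 1.17%). Which transcripts gave the control signal of the Mup2 probe was not tested.

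The remaining members were dim and stayed out of the test because no group had both arrays above background. Mup3 had 3.40% and 5.27% in MN kidneys, against 0.625% and 0.728% in control kidneys, with 1 of 2 MN arrays and neither control array well above background. Mup5 had 3.58% and 2.96% in MN kidneys, against 0.601% and 1.21% in control kidneys, also with 1 of 2 MN arrays and neither control array above background. Neither had groups that overlapped, but so few arrays measured them that no fold is given.

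**Figure D1:**
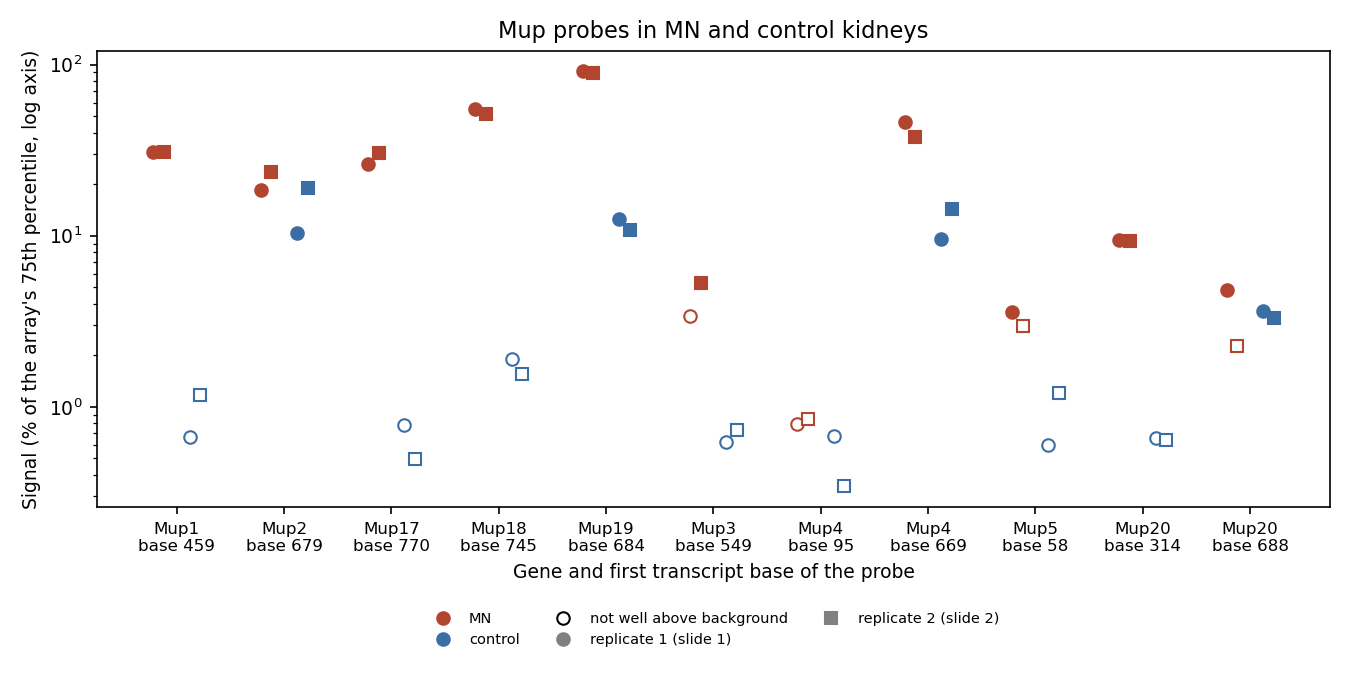
Signal of each member probe (vertical log axis, percent of the array's 75th percentile) in the 2 MN arrays and the 2 control arrays, with genes and first transcript bases along the horizontal axis. Open markers were not well above background; the Mup19 probe is at 91.1% and 89.3% in MN against 12.6% and 10.8% in control, and the Mup2 and second Mup20 probes overlap.

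Over the 11 member probes, 9 had both MN arrays above both control arrays, and 2, those of Mup2 and the second Mup20 probe, had overlapping groups. Among all 55663 probes with values on the array, 18.4% had both MN arrays above both control arrays, and of the 25296 genes tested 13.2% did and 19.8% had both below. Neither control array was well above background for 7 member probes; of these, 4 were above it on both MN arrays, 2 on 1 MN array and 1 on none. Of the 7 members tested, 6 were higher in MN on both slides, the exception being Mup20 through its second probe. In the same test 5 of 7 were higher at an unadjusted p under 0.05, against 3.55% of all genes. This contrast chose the members, and Mup1, Mup17 and Mup18, among those 5, passed the filter through the MN arrays alone. Nothing is therefore read from these counts. Probes that share transcripts repeat the same signal and are not separate observations.

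The sizes of the differences moved under normexp background correction with an offset of 50. That setting changes the background model and adds 50 signal units to each spot, which by itself shrinks differences of dim probes, and the parts of these changes were not told apart. The log2 differences were then 2.58 for Mup18, 2.04 for Mup1, 2.01 for Mup17, 2.24 for Mup19, 1.23 for the late Mup4 probe and 1.06 for the coding Mup20 probe. Each kept its direction. Mup19 and the late Mup4 probe, measured in both groups, were smaller than with the scanner software's own correction. Mup2 was at 0.27 and the second Mup20 probe at -0.05.

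**Figure D2:**
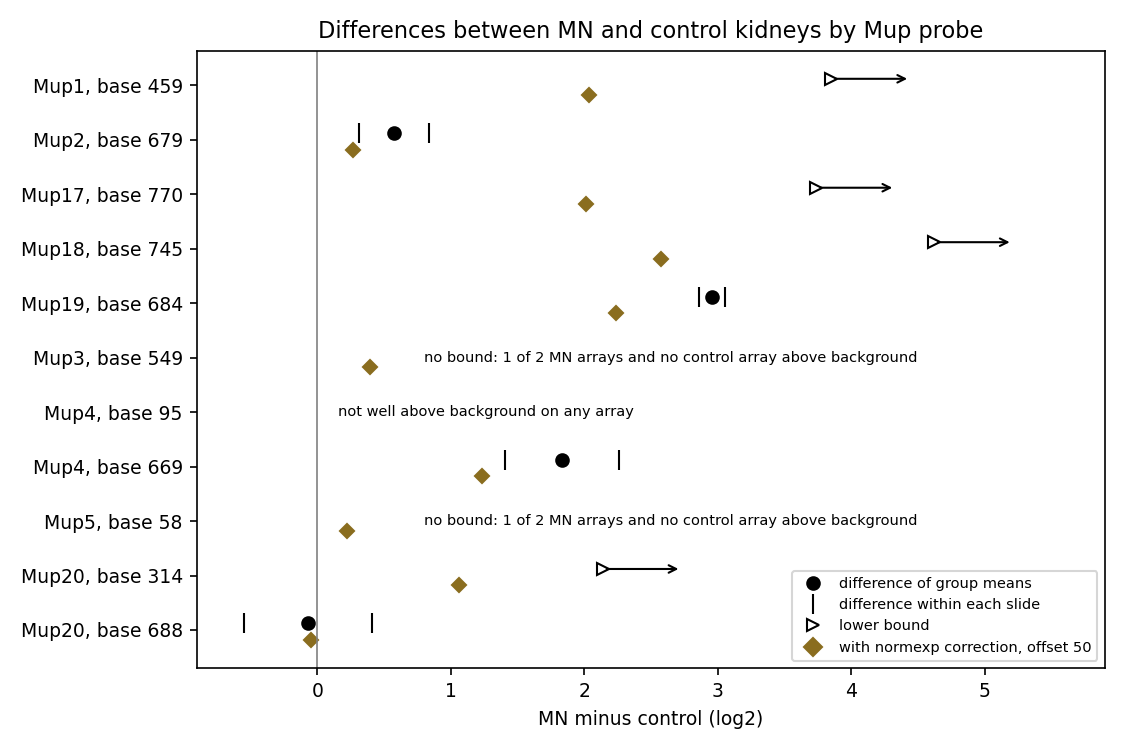
MN minus control on the log2 scale (horizontal axis) for each member probe: filled circles are differences of group means where control was measurable, ticks the differences within each slide, open triangles with arrows lower bounds, and diamonds the differences with normexp correction and an offset of 50; Mup3 and Mup5 have no bound. Mup19 is at 2.95 with ticks at 2.86 and 3.05, while the second Mup20 probe has ticks on both sides of 0.

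Other genes of the cluster gave mixed values. Mup21 was measured on all 4 arrays at 9.83% and 9.59% in MN kidneys, against 9.71% and 13.3% in control kidneys, with overlapping groups and a log2 difference of -0.23 ± 0.21 (SE, n = 2 each). A second Mup-ps12 probe, starting at transcript base 319, had 8.10% and 11.2% in MN kidneys, against 3.31% and 4.27% in control kidneys, a log2 difference of 1.34 ± 0.25 (SE, n = 2 each). The Mup-ps12 probe printed above was not well above background on any array.

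Promoter sequence was held for 6 of the 9 members (Mup2, Mup3, Mup4, Mup17, Mup18 and Mup19), in RefSeq's 250 bases before the gene start on build GRCm38.p6. The windows of Mup18 (chr4:61674095-61674344, minus strand) and Mup3 (chr4:62087318-62087567, minus strand) are printed because Mup18 had the largest bound and Mup3 the promoter least like it, and capitals mark the TATA-box letters searched for (TATATAA):
Mup18: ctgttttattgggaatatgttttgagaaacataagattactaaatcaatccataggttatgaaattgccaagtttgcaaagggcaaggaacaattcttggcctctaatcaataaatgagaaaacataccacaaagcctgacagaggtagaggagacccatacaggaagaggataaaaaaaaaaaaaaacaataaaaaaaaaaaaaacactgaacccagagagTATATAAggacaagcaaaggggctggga
Mup3: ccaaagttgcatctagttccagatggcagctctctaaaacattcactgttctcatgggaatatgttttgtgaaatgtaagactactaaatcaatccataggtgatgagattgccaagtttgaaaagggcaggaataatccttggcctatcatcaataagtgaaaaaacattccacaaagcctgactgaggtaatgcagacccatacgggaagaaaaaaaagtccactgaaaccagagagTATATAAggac
Each of the 6 windows held TATATAA once, on the forward strand, starting 11 to 31 bases before the annotated start. It occurred on either strand in 3.04% of 32851 windows of the same length. The window of Mup21, not a member, also held it once on the forward strand, 8 bases before the start. These windows are much alike in sequence and are not separate observations. The form of the STAT5 motif searched, TTCNNNGAA on both strands, was in 0 of the 6 windows and in 7.02% of all windows. Aligned to the Mup18 window, identity was 95.9% for Mup17, 95.8% for Mup2, 94.6% for Mup19, 91.1% for Mup4 and 87.3% for Mup3.

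The wider lipocalin family was set beside the Mup genes by counts alone. Of 22 listed relatives, 11 were tested and 0 passed the threshold; at an unadjusted p under 0.05 there was 1 higher and 1 lower, against 3.55% and 3.49% of all genes. Their median log2 difference was 0.11, against -0.05 over all genes tested. Rbp4, the retinol carrier of the blood and likewise made mainly by liver and fat, had 49.0% and 48.8% in MN kidneys, against 10.6% and 13.5% in control kidneys, a log2 difference of 2.03 ± 0.18 (SE, n = 2 each; adjusted p = 0.182 with limma). Lcn2, an iron-siderophore carrier used as a marker of tubular injury, was at 0.40 ± 0.17, Ambp, the precursor of alpha-1-microglobulin, at 0.47 and Ptgds, the prostaglandin D synthase, at 0.12. Lcn10, an epididymal lipocalin, was at -0.48.

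Genes through which hormones control Mup transcription in liver gave no call. Of 17 tested, 0 passed the threshold and their median was -0.04. By the unadjusted p 2 were lower, against 3.49% of all genes, and 0 higher. The growth hormone receptor gene Ghr was at -0.11 ± 0.14 and Stat5b at -0.07 ± 0.13 (SE, n = 2 each). Socs2, a STAT5 target that restrains growth hormone signalling, was at -0.71 ± 0.31, and Thra, a thyroid hormone receptor gene, at -0.52. Cux2, a factor of female-type liver, was at -0.44 by 1 probe and 0.51 by another.

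Receptors by which the proximal tubule takes up filtered proteins, among them lipocalins, also gave no call. Of 8 tested, 0 passed the threshold and 0 were at an unadjusted p under 0.05 in either direction, with a median of 0.05. Lrp2, which encodes megalin, was at 0.07 ± 0.24, and Cubn, which encodes its partner cubilin, at 0.02 ± 0.20 (SE, n = 2 each), and for both the groups overlapped.

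Since Mup transcripts are best known from liver, fat and glands, markers of these tissues were read in the same kidneys. Of 18 hepatocyte markers tested, 0 passed the threshold and the median was 0.44. By the unadjusted p 7 were higher, against 3.55% of all genes, and 0 lower. Ahsg (fetuin-A) had 29.6% and 30.1% in MN kidneys, against 2.80% and 4.25% in control kidneys, where 1 of 2 arrays was well above background. Its log2 difference was 3.11 ± 0.25 (SE, n = 2 each), and 1.56 with normexp. Fgb (fibrinogen beta chain) was at 1.44 and Apoh (apolipoprotein H) at 1.09, and with normexp at 0.57 and 0.33 in that order. Ttr (transthyretin) was at 1.40 in both settings, and Alb (albumin) at 1.02, or 0.84 with normexp. The summed signal of the 18 markers was 15684% and 16074% in MN kidneys, against 14263% and 15409% in control kidneys. Kng1 (kininogen) alone made up 61.7% of that sum over the 4 arrays, so the sum says little of the dimmer markers. Apoa1, Serpina3k, F2 and C9 were not well above background on both arrays of either group. The part of liver-type transcripts in the Mup result was not tested.

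Adipocyte markers differed more among themselves. Of 18 tested, 2 passed the threshold as higher, Cfd and Adipoq. By the unadjusted p 7 were higher, against 3.55% of all genes, and 0 lower. The median was 0.03, with 10 markers above 0 and 8 below. Among those below were Lipe at -0.26, Cidea at -0.16, Lep and Lpl at -0.12 and Fabp4 at -0.10. Cfd, the adipsin gene, had 302% and 398% in MN kidneys, against 2.56% and 3.17% in control kidneys, a log2 difference of 6.93 ± 0.22 (SE, n = 2 each; adjusted p = 0.046 with limma, 0.0568 with the block). Control replicate 1 was not well above background for Cfd, and with normexp the difference was 5.08. Adipoq, the adiponectin gene, had 49.1% and 37.7% in MN kidneys, against 0.661% and 0.646% in control kidneys, and was at least 20.2-fold higher in MN. The resistin gene Retn, at 47.7% and 49.6% in MN kidneys, against 2.77% and 0.86% in control kidneys, was at least 22.9-fold higher in MN (adjusted p = 0.293 with limma). Like Mup1, Mup17 and Mup18, Adipoq and Retn were well above background on both MN arrays and on neither control array. In 0.142% of all genes tested, neither control array was above background. The members and the lists were chosen with earlier results of these data known, so nothing is read from this likeness. The summed signal of the 18 markers was 10322% and 10628% in MN kidneys, against 10826% and 10306% in control kidneys. Of it, Lpl made up 44.9%. Acvr1c and Ucp1 were not tested. The part of adipocyte transcripts in the Mup result was not tested.

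Markers of other Mup-expressing glands did not pass the test. For mammary gland 0 of 6 tested markers passed the threshold and the median was -0.22; the milk protein genes Csn1s1, Csn1s2a and Csn2 were not well above background on both arrays of either group. For salivary and lacrimal glands 0 of 8 passed and the median was -0.05. Prol1, Muc19, Muc10 and Smr3a were among 7 listed markers not tested. Only 13 of the 15 listed were on the array under these names. Some of the 7 were therefore not measured, and the others were too dim to test. The labelled tissue was borne out by its markers. On all 4 arrays the 12 kidney tubule markers were above background, with a median of -0.03. All 8 podocyte markers were also above background on all 4 arrays, with 0 past the threshold and a median of 0.56. By the unadjusted p under 0.05 in limma, 4 of the 8 were higher, against 3.55% of all genes, and 0 lower.

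**Figure D3:**
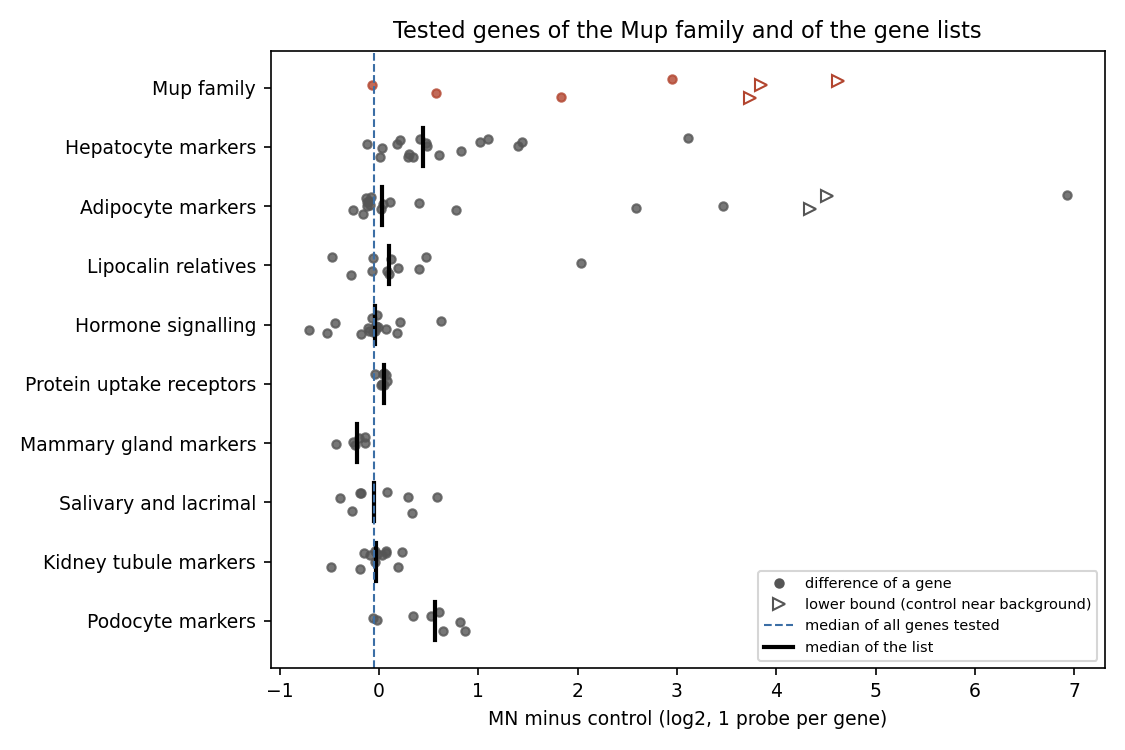
Log2 difference, MN minus control (horizontal axis), of each tested gene of the Mup family and of the 9 gene lists, 1 probe per gene; open triangles are lower bounds, thick lines list medians and the dashed line the median of all genes at -0.05. Tubule markers lie around 0, and Cfd at 6.93 is farthest right.

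The genes most like Mup19 over the 4 arrays were found by the Euclidean distance between log2 values centred on each gene's mean. They were Pcnx2 at a distance of 0.308, the antibody light chain segment Igkv3-7 at 0.346, the antibody joining chain gene Jchain at 0.377, the WNT activator gene Rspo1 at 0.387 and a probe for a long intergenic noncoding RNA region on the X chromosome at 0.401. Pcnx2 had 4.08% and 4.01% in MN kidneys, against 0.615% and 0.627% in control kidneys. Neither control array was well above background for Pcnx2, unlike for Mup19. It was at least 1.90-fold higher in MN, and its log2 difference with normexp was 0.38. Jchain had 171% and 200% in MN kidneys, against 19.5% and 20.1% in control kidneys, a log2 difference of 3.23. Rspo1 had 45.5% and 42.3% in MN kidneys, against 7.20% and 7.21% in control kidneys. With 4 arrays in 2 groups, a small distance means mainly a similar difference between the groups.

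On the arrays themselves, 64.0% and 63.1% of non-control spots were well above background in MN and 65.9% and 79.5% in control, and no spot was saturated. Control replicate 2 thus had the most spots above background, yet Mup1, Mup17, Mup18 and the coding Mup20 probe were not among them. The median over all genes was -0.02 within slide 1 and -0.08 within slide 2.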

How the data were processed

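Cy3-labelled RNA of 4 kidney samples was measured on 1 array each, per the labels' protocols. Intensity per spot, linear and background-subtracted, was deposited as written by Agilent's scanner software, Feature Extraction 10.5.1.1 per the file headers. The authors also deposited a value table in log2 units; how it was made is not stated in the labels. Its columns followed the percentile-scaled scanner values, with medians of -0.03 and -0.04 in MN and of 0.03 and -0.03 in control, but those of replicates 1 and 2 were exchanged in both groups. It served only as an alternative; how it was centred and which order is right are unknown.

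Control spots and non-uniform outliers were left out, spots of a probe were averaged, and the log2 processed signal was taken relative to the array's 75th percentile. A probe was tested if both arrays of either group were well above background, and the probe with the highest mean stood for its gene. Groups were compared with limma 3.58.1 in R 4.3.3 (lmFit, eBayes, Benjamini-Hochberg over 25296 genes, residual df 2, prior df 1.99), after tests on simulated data. Standard errors are the moderated ones of that fit, so they can exceed the spread of a gene's own replicates. Where neither control array was well above background, the MN mean was set against a control mean in which each array counted at its dimmest signal called above background, or at the probe's value if that was higher. Gene names came from RefSeq (GRCm38.p6) by accession for 28020 probes, by symbol for 3423 and by synonym for 295, and from the files for 23943.

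Slide, scan and replicate number coincide. The numbers mark a shared slide, and deviations of same-numbered arrays correlated at 0.63, so blocked values are given. The number of arrays limits the precision. The members and gene lists were chosen with earlier results of these data known. Named were all members, up to 4 genes per list with the largest differences, some fixed genes, and the 5 genes most like Mup19. Not every gene so chosen is named.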

Additional observations from a re-analysis of the deposited data

How the results depend on the processing

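The count of genes called by limma in MN against control (5 higher, 0 lower) was 15 with normexp correction, 20 with quantile normalization and 11 with median scaling. It was 16 with a mean-variance trend, 7 with the deposited value table and 7, counted as probes, with every probe as its own row. It was 0 without a filter on dim probes (1805 at an unadjusted p under 0.05), 0 when probes had to be above background on all 4 arrays (1532), 0 with the replicate block (3876) and 0 with each array left out in turn (904 to 1428). Mup18 lost its call with quantile normalization, without a filter, with the block and without each array in turn, and its log2 difference ran from 4.80 to 5.09 over the arrays left out. Settings that changed only the filter, the rows or the test left the log2 difference of each named gene as it was. Their direction could not change, so the next counts of kept directions say little of robustness. Over 87 alternative values of the 7 tested members, 84 kept their direction. The exceptions were all of Mup20 (-0.07 in the main setting): 0.15 with quantile normalization, and -0.62 to 0.48 over the arrays left out, where 0.00240 came without control replicate 1 and 0.48 without MN replicate 2. Mup1 passed the threshold with normexp and with quantile normalization, Mup17 with quantile normalization and Mup19 with the trend. Of 359 alternative values of 28 other genes, 356 kept their direction; over the arrays left out Lrp2 ran from -0.21 to 0.35, below 0 without control replicate 1, and Cubn from -0.15 to 0.19, below 0 without control replicate 1 (-0.11) or MN replicate 2. The cause was not tested. Mup1, Mup17 and Mup18 had no value where all 4 arrays had to be above background. Signals near background limit Mup1, Mup3, Mup5, Mup17, Mup18 and the coding Mup20 probe.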
